A study of Mus musculus with 69 samples.

Results

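The genes described are 8 granzymes and cytotoxic effector genes, Gzma, Gzmb, Gzmk, Gzmm, Prf1, Nkg7, Fasl and Ifng, chosen by name from the 24309 gene symbols shared by 3 count tables, 1 of CD8+ T cells, 1 of CD4+ T cells and 1 of retrovirus-transduced cells. Poly(A)+ RNA was sequenced from sorted cells of pooled lymph nodes and spleen of WT mice (Stat5a+/+ Stat5b+/+), AAB mice (Stat5a-/- Stat5b+/-) and BBA mice (Stat5a+/- Stat5b-/-), which were 8 to 16 weeks old by the study's methods. The alleles are germline deletions, so every cell of an AAB or BBA mouse had carried them. The 48 CD8+ libraries cover naive cells (Tnv, CD44 low CD62L high), central memory cells (Tcm, CD44 high CD62L high) and effector memory cells (Tem, CD44 high CD62L low), kept in IL-7 or IL-15 for 12 to 16 hours by the labels, or given no cytokine, with 2 libraries for each of 24 combinations and no Tem with IL-7. The study's methods say that cells not given cytokine went straight from the sort to lysis, although the labels attach the same culture protocol to all samples, so a comparison with them may also be one of culture against none. The 15 CD4+ libraries are of naive cells without cytokine or with IL-7, with 2 or 3 libraries a group. The 4 retrovirus libraries are of cells labelled activated CD8+ T cells from AAB mice, which received constitutively active STAT5A (CA-STAT5A) or a control vector, with 2 libraries each.

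STAT5A and STAT5B are closely related transcription factors that are switched on by IL-7, IL-15 and other cytokines of the common gamma chain family. Cytotoxic lymphocytes kill by releasing granules, in which perforin (Prf1) opens the way for granzymes, serine proteases that start death of the target cell, or by showing Fas ligand (Fasl) to a target that bears Fas. Nkg7 is a membrane protein of the granules that takes part in their release, and Ifng encodes interferon gamma, the main secreted effector cytokine of these cells. Naive T cells are known to hold little of this program, and memory and effector cells to hold more of it.

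On the GRCm38 annotation Gzmb lies on chromosome 14 from 56258838 to 56262260 on the minus strand, and Gzma (113093825 to 113100981) and Gzmk (113171608 to 113225908) lie near each other on chromosome 13, also on the minus strand. Gzmm (79689020 to 79695261), Prf1 (61297833 to 61304680) and Ifng (118441046 to 118445892) are on the plus strand of chromosome 10, Nkg7 is on the plus strand of chromosome 7 from 43437073 to 43438249, and Fasl is on the minus strand of chromosome 1 from 161780689 to 161788495. All 8 are annotated as protein-coding genes, and the counts are of their exons. Reads that match more than 1 granzyme gene are a limit of such counts, and levels of close relatives are uncertain to that extent.

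RefSeq promoters, 250 bases before to 50 after a gene's start, were found for all 8 genes in 9 windows, as Gzmm has 2 of them. The letters TTCNNNGAA, a palindrome to which STAT proteins are known to bind, stood in the windows of Gzmb, Nkg7 and Ifng and in 1 of the 2 of Gzmm, against 8.3% of all 32851 promoter windows. The letters TGTGGTT, known to be bound by RUNX factors and searched on both strands, stood in those of Gzmb and Gzma, against 5.27% of the windows. Shown are windows of Gzmb, Gzmm and Nkg7, which hold a TTCNNNGAA, and of Prf1, which holds neither motif. All of these genes were among those called in Tcm with IL-15. Gzma and Gzmk were also called there and hold no TTCNNNGAA, and Ifng, which holds it, was not tested there. The sequences are from GRCm38.p6 and run 5′ to 3′ along the gene's strand, and capitals mark the motifs.
Gzmb promoter, chr14:56262285-56262584, minus strand: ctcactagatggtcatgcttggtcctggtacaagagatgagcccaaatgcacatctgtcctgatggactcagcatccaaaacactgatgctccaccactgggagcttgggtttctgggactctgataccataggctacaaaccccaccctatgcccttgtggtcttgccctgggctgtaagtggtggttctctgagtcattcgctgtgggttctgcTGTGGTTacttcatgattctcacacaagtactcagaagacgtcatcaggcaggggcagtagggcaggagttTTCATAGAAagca
Gzmm promoter, chr10:79688770-79689069, plus strand: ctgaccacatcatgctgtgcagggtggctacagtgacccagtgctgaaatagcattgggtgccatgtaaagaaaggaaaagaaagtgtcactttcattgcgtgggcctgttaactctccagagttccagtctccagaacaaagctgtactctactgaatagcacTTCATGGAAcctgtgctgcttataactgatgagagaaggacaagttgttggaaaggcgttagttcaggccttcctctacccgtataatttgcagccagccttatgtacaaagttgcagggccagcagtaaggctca
Nkg7 promoter, chr7:43436888-43437187, plus strand: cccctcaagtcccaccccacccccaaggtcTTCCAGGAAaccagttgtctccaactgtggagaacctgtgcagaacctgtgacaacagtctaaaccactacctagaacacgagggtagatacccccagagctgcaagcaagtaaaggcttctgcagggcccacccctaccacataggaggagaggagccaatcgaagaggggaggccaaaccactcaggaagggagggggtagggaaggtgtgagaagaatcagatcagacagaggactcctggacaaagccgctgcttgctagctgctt
Prf1 promoter, chr10:61297586-61297885, plus strand: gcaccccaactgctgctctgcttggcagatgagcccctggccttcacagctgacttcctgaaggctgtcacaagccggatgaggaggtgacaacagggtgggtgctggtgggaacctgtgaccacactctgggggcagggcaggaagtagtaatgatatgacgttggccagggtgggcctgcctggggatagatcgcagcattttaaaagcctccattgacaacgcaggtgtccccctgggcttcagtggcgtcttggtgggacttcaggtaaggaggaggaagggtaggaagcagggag

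The TTCNNNGAA of Gzmm began 86 bases and that of Nkg7 220 bases before the start used for their RefSeq windows, while that of Gzmb began 37 bases after its own. The annotated gene starts above can differ from these. The whole Gzmb window lies before the annotated Gzmb start at 56262260, so on that annotation the motif lies before the gene. These matches are of letters only, and binding was not examined here.

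The labels were checked first against the targeted genes. Over the 16 libraries of each genotype in the CD8+ table, Stat5a was 32.2 to 110 CPM (counts scaled to library size, with TMM factors within a table) in WT, 0.981 to 5.13 in AAB and 31.1 to 51.6 in BBA, and Stat5b was 167 to 360, 80.5 to 132 and 49 to 87.4, in the same order. Total counts on genes were 5926139 to 25612758 in CD8+ libraries, 6705004 to 34118295 in CD4+ libraries and 11020965 to 16516525 in retrovirus libraries. The CD8+ libraries held 1240 to 3300 CPM of Cd8a and Cd8b1 together and 1.45 to 29 CPM of 7 natural killer (NK) cell markers. The 4 retrovirus libraries went against their label: Cd8a was 1.42 to 3.14 CPM, the sum of Cd3d, Cd3e and Cd3g was 19.5 to 210 CPM, and Ncr1, which encodes the NK cell receptor NKp46, was 1143 to 1442 CPM, so they are called here the libraries labelled CD8+. In CD8+ Tnv with IL-15, replicate 2 of WT held 242 CPM of Cd4 against 6.76 CPM in replicate 1. Xist and Y-linked genes placed all 6 libraries of CD8+ Tnv with IL-7 and 4 of 6 of Tcm with IL-7, both WT included, as male, and the other CD8+ libraries as female. Of the retrovirus libraries, replicate 1 was male and replicate 2 female with either vector.

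In Tcm with IL-15, the culture with the largest number of called genes, Gzmb was far lower in both STAT5-deficient genotypes, while Gzmm and Prf1 were higher in AAB than in WT. Gzma, Gzmm and Nkg7 were lower and Gzmk higher in BBA than in WT. The threshold for a call was a change beyond 1.5-fold and, in edgeR's quasi-likelihood test of every gene kept, a p under 0.05 after Benjamini-Hochberg adjustment. WT over AAB and WT over BBA share the WT libraries. Of the 8 genes 7 passed the filter on low counts, and 3 were called for WT over AAB and 5 for WT over BBA, where 4.27% and 23.7% of 10098 genes were called. For AAB over BBA 3 were called, against 5.99% of all genes. In a bulk sample fewer cells of a type and less RNA per cell cannot be told apart.

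Granzyme B is the protease most often used to mark cytotoxic activity. Its mRNA was 31.5 and 23 CPM in the WT libraries of Tcm with IL-15, 1.5 and 1.71 CPM in AAB, and 2.93 and 0.727 CPM in BBA. Both WT libraries stood above all 4 others. Gzmb passed the filter, at a threshold of 89.4 normalized counts, through WT. Its raw counts were 348 to 480 in WT, 22 to 26 in AAB and 10 to 31 in BBA. On the log2 scale WT exceeded AAB by 4.0 ± 0.47 (SE, n = 2 and 2, edgeR adjusted p = 0.00597) and BBA by 3.68 ± 0.48 (adjusted p = 0.0015). AAB and BBA overlapped, with a log2 fold change of AAB over BBA of -0.32 ± 0.56 (adjusted p = 0.745). Without replicate 1 of AAB the first call was lost at an adjusted p of 0.0504 (3.95), and the second was kept without any 1 library, at 4.92 without replicate 1 and 2.92 without replicate 2 of BBA.

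Without cytokine, Gzmb in Tcm was 4.99 and 2.64 CPM in WT, 2.25 and 0.756 in AAB and 6.68 and 2.43 in BBA, and WT and BBA overlapped. The log2 difference between WT and BBA was thus larger with IL-15 than without it, by 4.07 ± 0.95 (interaction term, edgeR adjusted p = 0.0288). Without cytokine the raw counts were 54 to 61 in WT and 38 to 88 in BBA. Gzmb did not pass the filter there and was not tested for genotype alone. The group with high counts in the interaction test was WT with IL-15, at 348 to 480. Gzmb was the 1 of 8 genes tested whose interaction was called in Tcm, where 7.79% of 10190 genes were called. Time in culture and IL-15 cannot be told apart in this difference. The call was lost without any 1 of 7 of the 12 libraries, at 3.14 to 4.20 and adjusted p of 0.0506 to 0.108. In Tnv and Tem none of the 3 and 8 genes tested was called for this interaction in edgeR, against 2.42% and 0.00922% of all genes, with 1 and 2 genes at an unadjusted p under 0.05 and 0 and 1 called by DESeq2. Over all genes 1957 of 10390 and 798 of 10841 were at such a p.

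Granzyme M is a protease of NK and memory T cells with its own cleavage preference. Gzmm was 39.4 and 24.3 CPM in WT Tcm with IL-15, 116 and 103 in AAB and 15.4 and 11.4 in BBA. The 3 genotypes did not overlap, with AAB highest and BBA lowest. The log2 fold change was -1.86 ± 0.21 for WT over AAB (edgeR adjusted p = 0.00591), 0.97 ± 0.23 for WT over BBA (adjusted p = 0.0145) and 2.83 ± 0.23 for AAB over BBA (adjusted p = 0.00374). The second call was lost without replicate 1 of WT (0.63, adjusted p = 0.0577) or replicate 2 of BBA (0.75, adjusted p = 0.0846), and the other 2 were kept without any 1 library.

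Prf1, the pore-forming protein, was 130 and 112 CPM in WT Tcm with IL-15, 222 and 218 in AAB and 112 and 121 in BBA. AAB stood above both other genotypes, which overlapped. Its log2 fold change was -0.94 ± 0.10 for WT over AAB (edgeR adjusted p = 0.00466), -0.23 ± 0.10 for WT over BBA (adjusted p = 0.099) and 0.72 ± 0.10 for AAB over BBA (adjusted p = 0.0105). Nkg7 was 509 and 390 CPM in WT, 476 and 423 in AAB and 257 and 211 in BBA. BBA was thus the lowest, with log2 fold changes of 0.66 ± 0.14 for WT over BBA (adjusted p = 0.0104) and 0.74 ± 0.14 for AAB over BBA (adjusted p = 0.028). The Nkg7 call for WT over BBA was lost without replicate 1 of WT (0.50, adjusted p = 0.0571) or replicate 2 of BBA (0.52, adjusted p = 0.0657), and that for AAB over BBA without any 1 of the 4 libraries compared, at 0.60 to 0.86 and adjusted p of 0.0547 to 0.124. The Prf1 call for AAB over BBA was lost without replicate 2 of AAB (0.75, adjusted p = 0.0536).

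Granzyme A was low in Tcm with IL-15, at 5.05 and 8.81 CPM in WT, 8.89 and 5.79 in AAB and 2.55 and 1.45 in BBA. BBA stood below the others, with a log2 fold change of WT over BBA of 1.54 ± 0.45 (edgeR adjusted p = 0.0314), which was lost without replicate 2 of WT (1.07, adjusted p = 0.137) and was not tested without replicate 2 of BBA, where Gzma did not pass the filter. Granzyme K, a tryptase known in memory cells, went the other way, at 4.99 and 0.861 CPM in WT, 12.3 and 7.7 in AAB and 67.1 and 6.77 in BBA. For WT over BBA it was -3.92 ± 1.09 on the log2 scale (adjusted p = 0.0261), and the BBA libraries differed widely. Without replicate 1 of BBA it was -1.52 (adjusted p = 0.179) and without replicate 2 of WT -3.15 (adjusted p = 0.0976). It was -5.62 without replicate 1 of WT and -4.81 without replicate 2 of BBA, and was called in both. Fasl was 9.78 and 3.05 CPM in WT, 5.47 and 4.21 in AAB and 2.27 and 0.364 in BBA, and was called for WT over BBA by DESeq2 but not by edgeR (log2 fold change 2.07 ± 0.78, adjusted p = 0.0721). Ifng did not pass the filter, at 0.728 to 1.97 CPM over the 6 libraries.

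**Figure D1:**
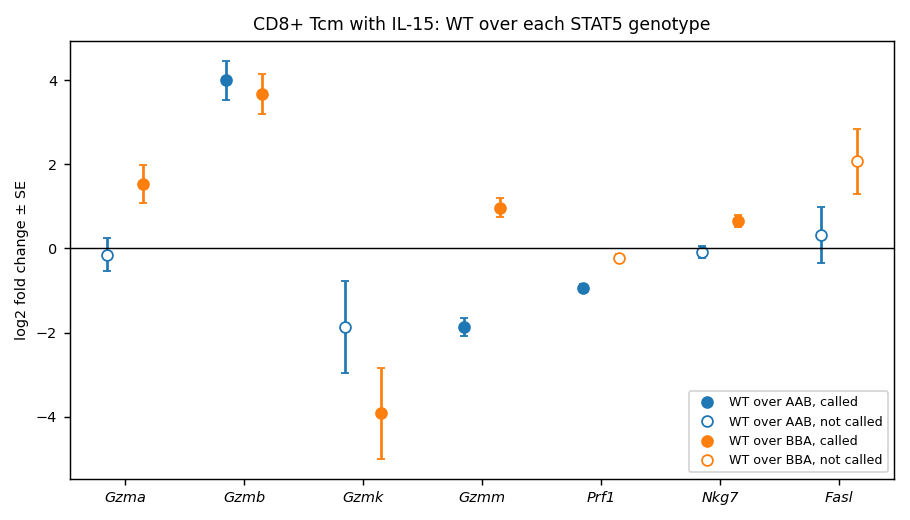
Log2 fold change with its standard error (vertical axis) of WT over AAB (blue) and WT over BBA (orange) for the 7 genes tested in CD8+ Tcm with IL-15, with filled points for called genes. Gzmb lies at 4.0 and 3.68 in both comparisons, while Gzmm lies at -1.86 against AAB and at 0.97 against BBA.

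The levels of other cells' markers in Tcm with IL-15 are given beside these results. The NK marker sum was 6.3 and 7.22 CPM in WT, 5.26 and 6.12 in AAB and 8.32 and 8.29 in BBA, and Klra8 and Klra4 of that list were at 0 in nearly every T cell library. The sum of Cd8a and Cd8b1 was 3182 and 2670 CPM in WT, 3153 and 2885 in AAB and 2063 and 1884 in BBA, and the sum of 4 B cell markers reached 356 CPM in replicate 2 of BBA against 71.2 to 198 in the 5 others. The part of these differences in the values above was not tested.

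Of 36 further genes of the cytotoxic pathway, 26 were tested in Tcm with IL-15, and their median log2 fold change was near that of all genes (-0.02 and -0.02 for WT over BBA). Called over all 10098 genes were 1194 higher and 1201 lower in WT than in BBA, or 23.7%, against 3 and 5 of the 26. WT exceeded BBA in Tnf (tumor necrosis factor, 3.74 ± 0.29, edgeR adjusted p = 0.000259), Lta (lymphotoxin alpha, 2.48 ± 0.17, adjusted p = 0.000154) and Tbx21 (the effector regulator T-bet, 1.51 ± 0.17, adjusted p = 0.00091). The largest fold change among the 5 higher in BBA was that of Prdm1 (Blimp-1, a regulator of effector and memory state), at -1.81 ± 0.34 (adjusted p = 0.00602). WT exceeded AAB in Tnf (2.18 ± 0.25, adjusted p = 0.00582) and Lta (2.26 ± 0.16, adjusted p = 0.00257) and in no other gene of the list. Tbx21 (1.34 ± 0.17, adjusted p = 0.00913) and Tnf (1.55 ± 0.29, adjusted p = 0.0256) were higher in AAB than in BBA. Tbx21 ranged from 50.5 to 56.4 CPM in WT, from 44.4 to 45.7 in AAB and from 12.5 to 18.6 in BBA. None of the 6 granzyme genes Gzmc, Gzmd, Gzme, Gzmf, Gzmg and Gzmn was tested in Tcm with IL-15, where their counts were 7 or fewer in each library.

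The same genes in the other CD8+ conditions gave few calls for genotype. Of the 45 tests of the 8 genes over all 8 conditions, 7 were called for WT over BBA, 5 of them in Tcm with IL-15, and 3 for WT over AAB, all in that condition. Over all genes Tcm with IL-15 also held the most calls. They were 2395 for WT over BBA, against at most 940 in another condition, and 431 for WT over AAB, against at most 89. More of the 8 were called in both comparisons with the replicate number as a block, as given in the last section. In Tem with IL-15 Gzma was 32.5 and 30.1 CPM in WT, 13.1 and 13.6 in AAB and 4.21 and 6.92 in BBA. The genotypes did not overlap, and WT over BBA was called (2.44 ± 0.36, edgeR adjusted p = 0.0429), although not without any 1 of 5 of the 6 libraries (2.02 to 2.53, adjusted p of 0.0861 to 0.234). Gzmb there was 37.3 and 26.4 CPM in WT, 13.9 and 6.99 in AAB and 9.99 and 2.19 in BBA, again with WT highest, and WT over BBA was called by DESeq2 but not by edgeR (2.41 ± 0.61, adjusted p = 0.122). Of the genes tested 1.79% were called for WT over BBA in Tem with IL-15, 0.019% for WT over AAB and 0.00949% for AAB over BBA. None of the 8 was called in the latter pair in edgeR, with 3 each at an unadjusted p under 0.05 and 2 and 3 called by DESeq2. Over all 10541 genes 775 and 746 were at such a p. In Tem without cytokine, where 0.207% and 0.0197% of genes were called for WT over BBA and WT over AAB, none of the 8 was called in edgeR, with 2 and 4 at an unadjusted p under 0.05 and 0 and 2 (Gzma and Gzmb) called by DESeq2. Over all 10151 genes 1096 and 815 were at such a p. Gzmb there was 83.1 to 84.4 CPM in WT, 16.2 to 31.4 in AAB and 36.1 to 60.7 in BBA. Gzma was 48.1 to 54, 25 to 26.6 and 28.7 to 34.2 CPM. WT thus stood above both other genotypes in both genes without cytokine too.

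In Tem with IL-15 the order of Gzmm was as in Tcm with IL-15, at 20.7 and 7.21 CPM in WT, 66.9 and 35.3 in AAB and 7.02 and 5.01 in BBA. For Gzmm there edgeR called no comparison (AAB over BBA 3.02 ± 0.46, adjusted p = 0.298), while DESeq2 called WT over AAB and AAB over BBA. Gzmk in Tem was 102 and 26.2 CPM in WT, 149 and 93.9 in AAB and 349 and 111 in BBA with IL-15, and 68.7 and 18.6, 89.9 and 47, and 272 and 46.8 without cytokine. Replicate 1 was the higher of each pair, and over all 24 groups it was the higher in 19 and the lower in 3. Replicate 1 of BBA Tem without cytokine also held 221 CPM of 4 myeloid markers and 27.3 CPM of the NK markers, against 31.2 to 75.1 and 5.34 to 12.9 CPM in the 5 other libraries. The part of this in Gzmk was not tested.

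In Tcm with IL-7 the 1 edgeR call of 7 tests for WT over BBA was Gzmk, at 4.99 and 4.11 CPM in WT, 3.32 and 5.29 in AAB and 14.5 and 25.4 in BBA. Both BBA libraries stood above the others (WT over BBA -2.37 ± 0.41, edgeR adjusted p = 0.0401), and 3.09% of genes were called. Gzmk passed the filter, at a threshold of 93.5 normalized counts, through BBA. Its raw counts were 62 to 79 in WT, 32 to 81 in AAB and 149 to 340 in BBA. The call was lost without any 1 of the 4 AAB and BBA libraries, at -2.74 to -1.88 and adjusted p of 0.0561 to 0.297, and with a term for sex, at -2.67 (adjusted p = 0.093), as both WT libraries were male and 1 library each of AAB and BBA female. Gzmb with IL-7 was 14.6 and 61.1 CPM in WT, 2.6 and 1.31 in AAB and 9.81 and 19.1 in BBA and was called for WT over AAB by DESeq2 but not by edgeR (4.22 ± 0.84, adjusted p = 0.254). Gzmm was 171 and 14.4 CPM in WT, 8.1 to 15 in AAB and 4.78 to 7.29 in BBA. AAB was thus not the highest, unlike in Tcm with IL-15. Prf1 was 117 to 186 CPM in WT, 84.4 to 108 in AAB and 74.6 to 84.7 in BBA, with WT above both. The WT library with 171 CPM of Gzmm also held the highest NK marker sum of all CD8+ libraries, 29 CPM against 8.96 CPM. The part of these cells in Gzmm was not tested. For WT over BBA 5 of the 7 genes were at an unadjusted p under 0.05, as were 2483 of all 10027 genes, and DESeq2 called Gzmk, Gzmm and Nkg7. For WT over AAB 0.0598% and for AAB over BBA 0.0898% of genes were called in Tcm with IL-7 and none of the 7 genes in edgeR, with 4 and 2 at an unadjusted p under 0.05 and 2 and 2 called by DESeq2. Over all genes 1135 and 667 were at such a p.

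Tcm without cytokine had no call among 6 genes tested in edgeR, with 4 genes for WT over AAB and 3 for WT over BBA at an unadjusted p under 0.05 and 1 each called by DESeq2, against 0.0411% and 0.287% of all genes called. Over all 9741 genes 373 and 935 were at such a p. Gzmm in Tcm without cytokine was 90.2 and 51.3 CPM in WT, 125 and 96.5 in AAB and 32.6 and 23.2 in BBA, again with AAB highest and BBA lowest. Gzma was 12.3 and 9.51 CPM in WT, 34.8 and 29.8 in AAB and 12.3 and 9.46 in BBA. AAB stood above the other genotypes, and WT over AAB was -1.63 ± 0.21 (adjusted p = 0.329).

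In Tnv most of the 8 genes were too low to test: the filter passed 3 of them without cytokine, 4 in the IL-7 culture and 2 in the IL-15 culture. Prf1 and Nkg7 passed in each culture. None was called for genotype in edgeR, where 0.166% and 2.78% of genes were called for WT over AAB and WT over BBA without cytokine, 0.257% and 2.69% in the IL-7 culture and 0.893% and 9.43% in the IL-15 culture, and for AAB over BBA 0.148% in IL-7 and 0.0702% in IL-15. At an unadjusted p under 0.05 were 2 genes each for WT over AAB and WT over BBA without cytokine, 1 and 2 in IL-7, 1 and 1 in IL-15, and none for AAB over BBA, and DESeq2 called Ifng for WT over BBA without cytokine, Prf1 for WT over BBA with IL-7 and Prf1 for WT over AAB with IL-15. Over all genes such a p was found for 749 and 2195 of 9615 without cytokine. It was found for 973 and 1829 of 10119 in IL-7 and for 1409 and 2243 of 9971 in IL-15. For AAB over BBA these counts were 850 in IL-7 and 669 in IL-15. Prf1 in Tnv with IL-15 was 29.6 and 27 CPM in WT, 47.8 and 48.2 in AAB and 26 and 42.8 in BBA, with AAB above the others (WT over AAB -0.86 ± 0.18, adjusted p = 0.0747).

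Gzma in Tnv with IL-7 followed the replicate rather than the genotype. It was 3.79 and 15.8 CPM in WT, 0.125 and 10.6 in AAB and 0.414 and 15.8 in BBA, so that replicate 2 was the higher in all 3 genotypes. The NK marker sum was 3.54 and 12.5 CPM in WT, 2.56 and 12.2 in AAB and 1.45 and 17.8 in BBA, also higher in replicate 2 of each. Whether these cells carried the Gzma counts was not tested.

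**Figure D2:**
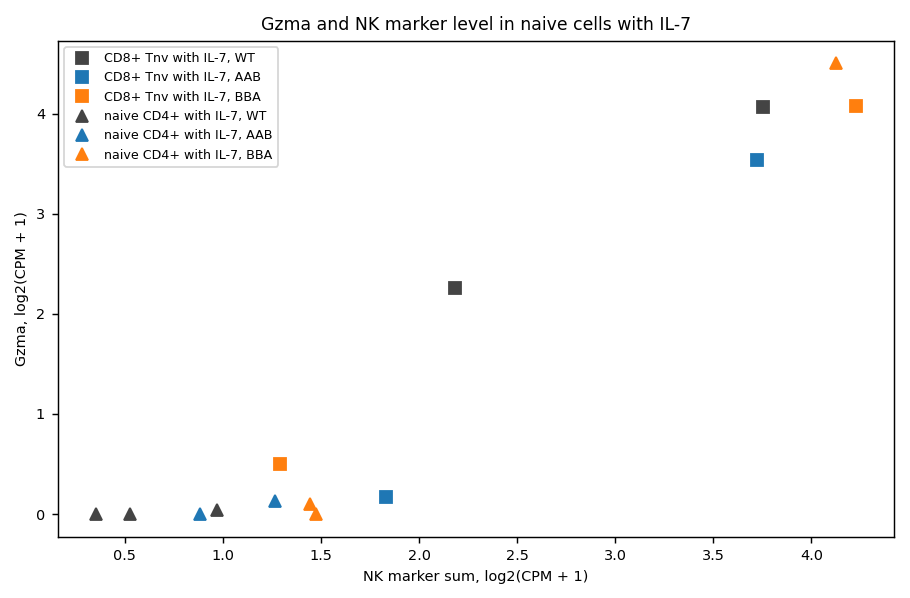
Gzma level (vertical axis, log2 of CPM plus 1) against the sum of 7 NK cell markers (horizontal axis, log2 of CPM plus 1) in each library of CD8+ Tnv with IL-7 (squares) and naive CD4+ cells with IL-7 (triangles), colored by genotype. The 4 libraries with an NK marker sum of 12.2 CPM or more, replicate 2 of each CD8+ genotype and replicate 3 of BBA CD4+ cells, are those with Gzma at 10.6 CPM or more.

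Across cell states in WT CD8+ cells, Nkg7 and Prf1 were found at every stage, while the granzymes were low in Tnv. Nkg7 was 301 and 277 CPM in naive cells without cytokine, 493 and 368 CPM in Tcm and 523 and 422 CPM in Tem, and Prf1 was 120 and 109, 200 and 163, and 172 and 154 CPM. Neither was called between states without cytokine by edgeR, while DESeq2 called Prf1 for Tcm over Tnv. Gzmm was 1.1 and 1.65 CPM in naive cells, 90.2 and 51.3 CPM in Tcm and 59.2 and 30.8 CPM in Tem, and Tcm over Tnv was 5.61 ± 0.49 on the log2 scale (edgeR adjusted p = 0.00322). Gzma was 0.783 and 1.96, 12.3 and 9.51, and 48.1 and 54 CPM, and it rose in both steps, by 2.90 ± 0.33 (adjusted p = 0.0076) and 2.29 ± 0.26 (adjusted p = 0.01). Gzmb was 2.82 and 0.857, 4.99 and 2.64, and 84.4 and 83.1 CPM, and rose from Tcm to Tem (4.59 ± 0.42, adjusted p = 0.00609). Fasl rose in the same step (2.31 ± 0.40, adjusted p = 0.0415), from 3.24 and 1.94 to 14.6 and 9.33 CPM.

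Of the genes tested without cytokine 2.71% were called for Tcm over Tnv and 1.9% for Tem over Tcm, beside 2 and 3 of the 8. The Fasl call was lost without any 1 of the 6 libraries (1.95 to 2.64, edgeR adjusted p of 0.0539 to 0.289), the Gzma call for Tem over Tcm without either Tem library (2.38, adjusted p = 0.0637, and 2.22, adjusted p = 0.0514) and the Gzmb call without replicate 1 of Tem (4.57, adjusted p = 0.0605). Ifng was 8.54 and 0.551 CPM in naive cells, 12.3 and 18.8 CPM in Tcm and 80.2 and 97.8 CPM in Tem, and Gzmk 0.783 and 0.184, 7.3 and 1.21, and 68.7 and 18.6 CPM. Tem stood above Tcm in both, and neither was called (Ifng 2.54 ± 0.72, adjusted p = 0.19, and Gzmk 3.59 ± 0.89, adjusted p = 0.136).

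With IL-15, Tcm over Tnv was called for Gzmb (3.56 ± 0.24, edgeR adjusted p = 0.00331), Gzmm (4.50 ± 0.50, adjusted p = 0.00955) and Prf1 (1.98 ± 0.14, adjusted p = 0.0038), against 7.38% of genes. Gzmb in Tnv with IL-15 was 1.73 and 2.44 CPM. The Gzmm call was lost without replicate 1 of Tcm (4.14, adjusted p = 0.0949) or replicate 2 (4.77, adjusted p = 0.0619), and the Prf1 call without replicate 1 (1.89, adjusted p = 0.0524). Without replicate 2 of Tnv, the library with Cd4 at 242 CPM, all 3 were kept, at 3.85, 4.30 and 1.91. With IL-7, Tcm over Tnv was called for Gzmk, Prf1 and Nkg7, against 4.92% of genes. Prf1 was 22.1 and 31.5 CPM in Tnv and 186 and 117 in Tcm (2.38 ± 0.28, adjusted p = 0.0236), and Nkg7 163 and 148 against 666 and 440 CPM (1.71 ± 0.22, adjusted p = 0.0285). The Nkg7 call was lost without either Tnv library (1.78, adjusted p = 0.143, and 1.64, adjusted p = 0.191). Gzmk was at 0 counts in both Tnv libraries and at 4.99 and 4.11 CPM in Tcm (adjusted p = 0.0412), a call lost without either Tnv library (adjusted p of 0.0797 and 0.0791). Gzmk passed the filter for that test through Tcm alone. For Tem over Tcm with IL-15, where 2% of genes were called, none of the 8 was called in edgeR, with 4 at an unadjusted p under 0.05 and 3 called by DESeq2. Over all 9845 genes 2310 were at such a p.

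Per kilobase of merged exons, the scale on which genes can be set side by side, Nkg7 was the highest of the 8 in all 8 WT CD8+ groups. In WT Tem without cytokine its mean level was 517 CPM per kilobase, followed by Ifng at 68.7, Prf1 at 63.1, Gzmb at 58.3, Gzma at 50.7, Gzmk at 31.4, Gzmm at 30.6 and Fasl at 6.19. In WT Tcm with IL-15 the mean level of Nkg7 was 492 CPM per kilobase, followed by Prf1 at 46.7, Gzmm at 21.6, Gzmb at 19, Gzma at 6.89, Fasl at 3.31, Gzmk at 2.1 and Ifng at 1.04. The values of Gzmm and Gzmb overlapped between their libraries there.

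**Figure D3:**
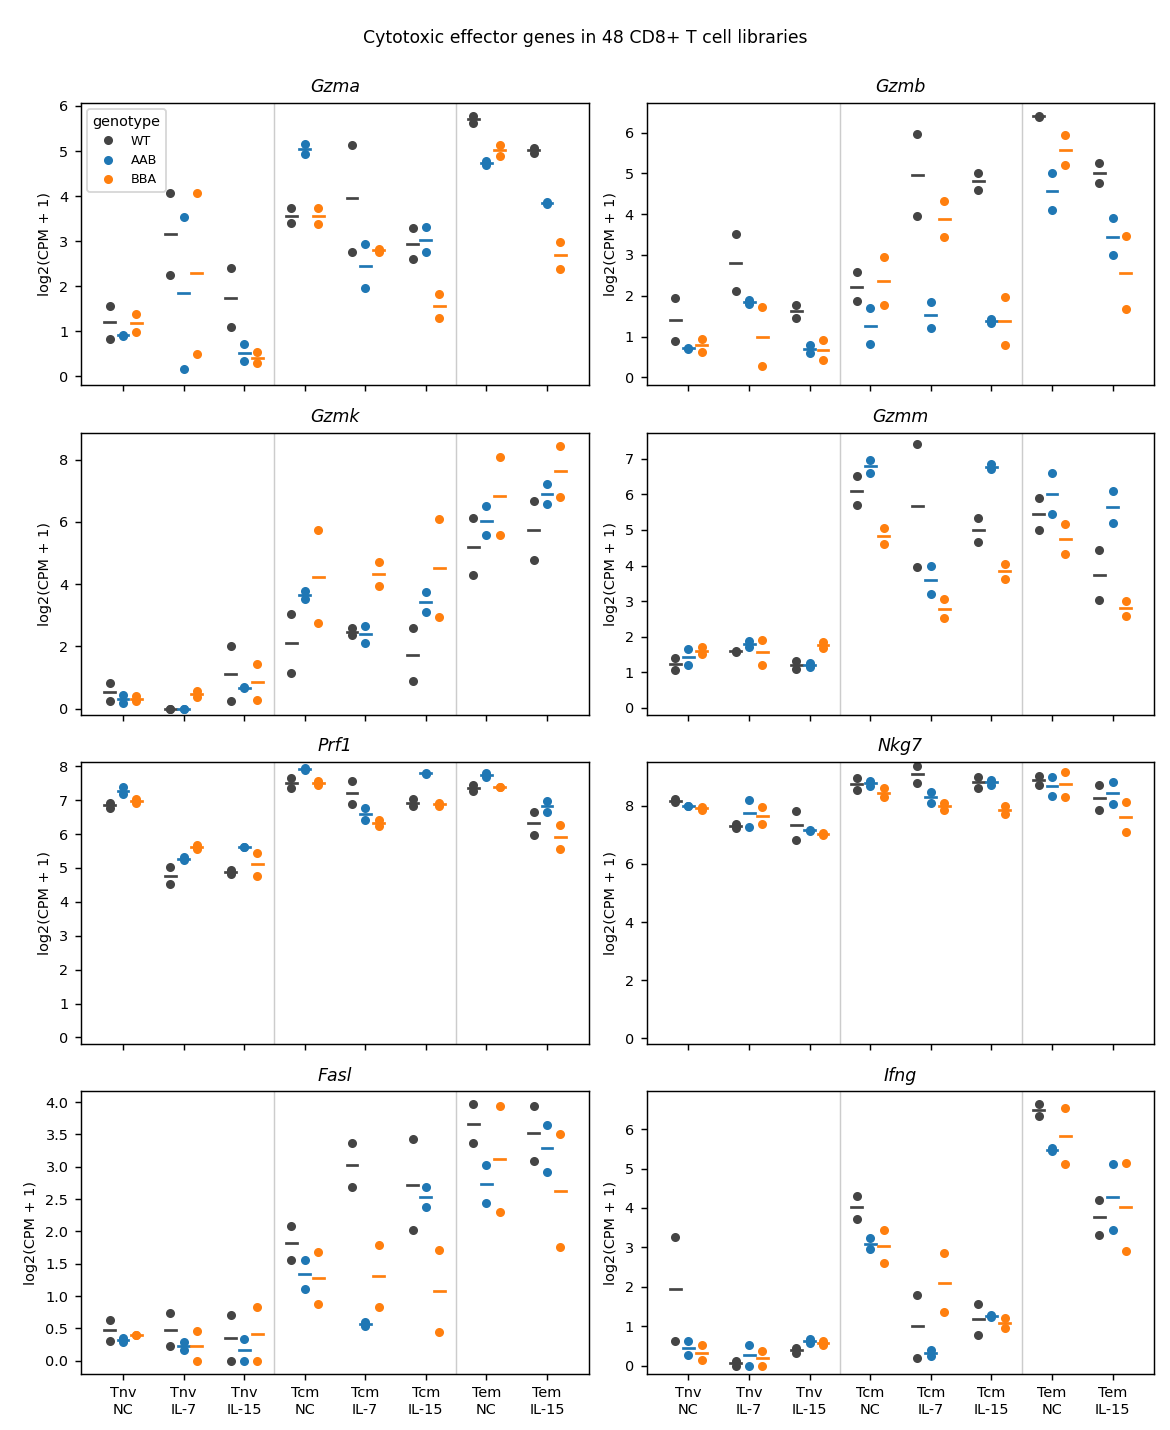
Level of each of the 8 genes (vertical axis, log2 of CPM plus 1) in 48 CD8+ libraries, by cell state and condition (horizontal axis, NC for no cytokine) and genotype (color), with a point for each library and a bar for the mean of 2. Gzmb in Tcm with IL-15 is 23 CPM or more in WT and under 3 CPM in AAB and BBA, and Gzmm is at most 2.76 CPM in Tnv.

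Some of the genes were lower in WT cells kept with cytokine than in those without. The cells without cytokine were not cultured by the study's methods, so cytokine and time in culture cannot be told apart in any of these comparisons. In Tnv, Prf1 fell from 120 and 109 CPM without cytokine to 22.1 and 31.5 with IL-7 (log2 fold change -2.03 ± 0.17, edgeR adjusted p = 0.000526) and to 29.6 and 27 with IL-15 (-1.97 ± 0.17, adjusted p = 0.00248). Both calls were kept without any 1 library. In naive CD4+ cells Prf1 also fell with IL-7, from 47.5, 36.8 and 64.9 CPM to 18, 15.8 and 17.6 (-1.55 ± 0.19, adjusted p = 0.000356), and this too was kept without any 1 library. The Tnv libraries with IL-7 were male and those without cytokine female, so that sex and IL-7 cannot be told apart in CD8+ Tnv, while the CD4+ libraries and the Tnv libraries compared for IL-15 were of 1 sex each.

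In Tnv with IL-7, Gzma was called higher (2.86 ± 0.92, edgeR adjusted p = 0.0498), from 0.783 and 1.96 CPM to 3.79 and 15.8 CPM. The call was lost without either Tnv library without cytokine (2.39, adjusted p = 0.216, and 3.67, adjusted p = 0.128) and Gzma was not tested without replicate 2 with IL-7. The NK marker sum of that replicate was 12.5 CPM, against 3.54 CPM in replicate 1 with IL-7 and 3.6 and 6 CPM without cytokine, and its part in the Gzma level was not tested. Ifng was called lower (-6.34 ± 1.87, adjusted p = 0.0384), from 8.54 and 0.551 CPM, where replicate 1 decides the level, to 0.0842 and 0 CPM. The Ifng call was lost without either IL-7 library (adjusted p of 0.142 and 0.169). In Tnv 20.2% of genes were called for IL-7 and 6.17% for IL-15, beside 3 and 1 of the 5 tested. In Tem with IL-15 Gzmb fell from 84.4 and 83.1 to 37.3 and 26.4 CPM (-1.23 ± 0.10, adjusted p = 0.0177) and Ifng from 80.2 and 97.8 to 17.5 and 8.96 CPM (-2.61 ± 0.23, adjusted p = 0.0177), where 1.52% of genes were called. The Gzmb call was lost without either Tem library without cytokine (-1.21, adjusted p = 0.0559, and -1.24, adjusted p = 0.0631) and the Ifng call without replicate 2 of them (-2.46, adjusted p = 0.0634).

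In WT Tcm the level of Gzmb was higher with IL-15 (31.5 and 23 CPM) and IL-7 (14.6 and 61.1 CPM) than without cytokine (4.99 and 2.64 CPM), with no overlap, and was not called, at 2.81 ± 0.69 (edgeR adjusted p = 0.23) and 3.40 ± 0.70 (adjusted p = 0.124). The WT Tcm libraries with IL-7 were male and those without cytokine female, so sex and IL-7 cannot be told apart there either. Of all genes 0% and 0.353% were called in Tcm for IL-15 and IL-7, with 1386 and 1377 of 11608 genes at an unadjusted p under 0.05. None of the 8 was called in edgeR in either, with 3 each at an unadjusted p under 0.05 and 2 each (Gzmb and Ifng) called by DESeq2. For CD4+ cells 16.7% of genes were called with IL-7, beside Prf1 among the 2 tested.

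Naive CD4+ cells, which do not belong to the cytotoxic lineage, held Prf1 at 15.8 to 64.9 CPM and Fasl at 1.69 to 11.9 CPM over the 15 libraries, and Gzmm and Ifng never exceeded 2.17 and 0.885 CPM. Of the 8 genes 4 passed the filter without cytokine (Gzmk, Prf1, Nkg7 and Fasl) and 3 with IL-7 (Gzma, Gzmb and Prf1), and the others were not tested. None of those tested was called for genotype in edgeR, where 0.373% and 1.13% of genes were called without cytokine for WT over AAB and WT over BBA and 0.627% and 5.55% with IL-7. At an unadjusted p under 0.05 were none for WT over AAB in either condition and 3 and 2 for WT over BBA, and DESeq2 called Gzmk for WT over BBA without cytokine. The 2 with IL-7 were Gzma and Gzmb, which passed the filter through replicate 3 of BBA alone. Over all genes 841 and 1031 of 10456 were at such a p without cytokine and 1059 and 2530 of 9248 with IL-7. Gzma and Gzmb in BBA with IL-7 were 21.7 and 27.1 CPM in replicate 3 and under 0.1 CPM in replicates 1 and 2. That library held 16.5 CPM of the NK markers, with Ncr1 at 4.16 CPM, against 1.78 CPM or less in the 7 others with IL-7. The part of these cells in the 2 values was not tested. The level of Gzmk in BBA with IL-7 was 6.47, 2 and 0.693 CPM, against 0, 0.03 and 0 CPM in WT and 0.563 and 0.846 in AAB, and it did not pass the filter.

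In the libraries labelled CD8+ that were transduced with retrovirus, 4 of the 8 genes were higher and 1 was lower with CA-STAT5A than with control vector. The median log2 fold change of the 8 was 0.91 against 0.00 over all 10446 genes tested, of which 6.76% were called. Gzmb was 62.6 and 85.7 CPM with control vector and 1399 and 798 CPM with CA-STAT5A (3.86 ± 0.31, edgeR adjusted p = 0.00378). Gzma was 2008 and 1843 against 5886 and 6322 CPM (1.64 ± 0.13, adjusted p = 0.00378). Prf1 was 794 and 767 against 2808 and 1867 CPM (1.55 ± 0.20, adjusted p = 0.00912), and Fasl 71.8 and 84.3 against 183 and 144 CPM (1.04 ± 0.15, adjusted p = 0.0126). The groups did not overlap in any of these 4 genes.

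Gzmm fell with CA-STAT5A, from 30.7 and 27.2 to 11.4 and 8.3 CPM (-1.57 ± 0.20, edgeR adjusted p = 0.00826). Nkg7 was 1072 and 956 against 1532 and 1481 CPM (0.54 ± 0.13, adjusted p = 0.0603), Ifng 47.1 and 53.1 against 105 and 69.4 CPM (0.78 ± 0.20, adjusted p = 0.0721) and Gzmk 18.5 and 12.1 against 18.9 and 27.7 CPM (0.58 ± 0.27, adjusted p = 0.291). None of these 3 was called by edgeR, while DESeq2 called Ifng. All 5 calls were kept without any 1 library. The NK marker sum was 2696 to 3075 CPM in the 4 libraries, while the sum of the Cd3 genes was lower with CA-STAT5A (19.5 and 45 CPM) than with control vector (104 and 210 CPM). The myeloid marker sum was 1324 and 1158 against 573 and 444 CPM. The part of these differences in the values was not tested. Levels in these libraries were normalized apart from those of the CD8+ libraries, and the cells had also been activated and transduced, so the tables were not compared by test.

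**Figure D4:**
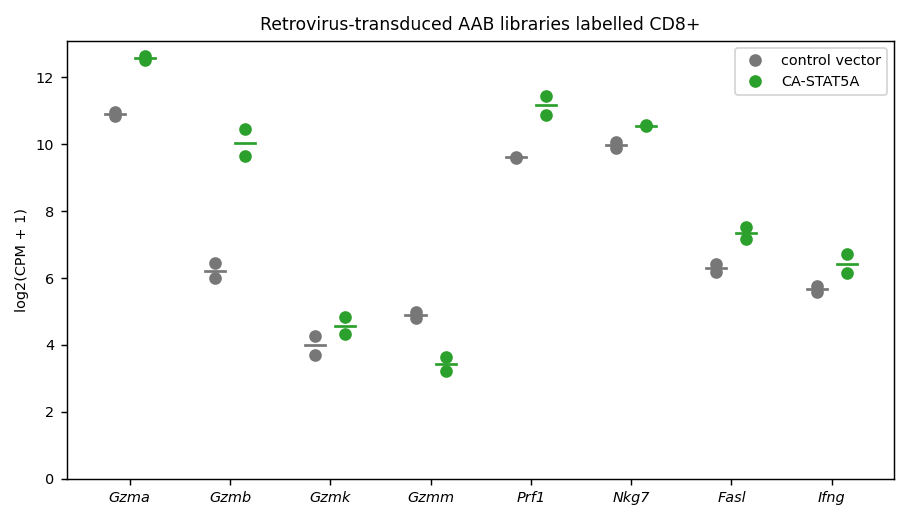
Level of the 8 genes (vertical axis, log2 of CPM plus 1) in 4 retrovirus-transduced AAB libraries labelled CD8+, with a point for each library and a bar for the mean of 2 with control vector (gray) or CA-STAT5A (green). Gzmb lies at 62.6 and 85.7 CPM with control vector and at 1399 and 798 CPM with CA-STAT5A, and Gzmm is the 1 gene whose CA-STAT5A libraries lie below both controls.

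Of the 36 further pathway genes 30 were tested in the retrovirus libraries, and 6 rose and 7 fell, beside 238 that rose and 468 that fell (6.76% in all) of 10446 genes. The largest rise was of Serpinb9b (2.46 ± 0.23, edgeR adjusted p = 0.00478), a relative of the granzyme B inhibitor Serpinb9, and the largest falls were of Tnf (-2.81 ± 0.55, adjusted p = 0.0325), of Ifngr2, a chain of the interferon gamma receptor (-2.08 ± 0.42, adjusted p = 0.0343), and of Lta (-1.96 ± 0.28, adjusted p = 0.0126).  Stat5a was 60.7 and 60.9 CPM with CA-STAT5A and 8.35 and 3.17 CPM with control vector. In the CD8+ cells of WT, Tnf was the gene of the list with the largest fold change over BBA in Tcm with IL-15, and with IL-7 in Tnv it and Lta were higher in WT by 3.38 ± 0.37 (adjusted p = 0.0124) and 3.47 ± 0.36 (adjusted p = 0.00983).

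By pattern over the 24 CD8+ groups, as Spearman correlation of mean levels among 11542 genes, the gene most like Gzmb was Ezh2 (0.857), a histone methyltransferase, and that most like Prf1 was Ly9 (0.961), a receptor of the SLAM family. Gzmk was most like Ptpn13 (0.969), Gzmm like 5430427O19Rik (0.942), Nkg7 like B4galt5 and Pfkp (0.944 each), Fasl like Dock5 (0.95), Gzma like 1190002N15Rik (0.916) and Ifng like Ndnf (0.943). Among the 8 themselves it was highest between Gzmk and Ifng (0.845) and lowest between Gzmb and Prf1 (0.169). The groups share cell states and libraries' depth, so these values describe the pattern and were not tested.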

How the data were processed

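The authors deposited raw read counts per gene symbol in 3 tables, of CD8+, CD4+ and retrovirus libraries. The study's methods name single-end reads of 50 bp, mm10, tophat2 and htseq-count, whereas the submitters' processing notes name mm9, and whether strand was used is not given in the sources used here. The retrovirus table holds 5 summary rows with 67% to 68.4% of each column, which stayed out of library sizes and tests. Of 69 samples 67 were mapped by their labels, and 2 CD4+ libraries with contradictory cytokine labels entered no comparison. The study's supplement gives 2 or 3 mice a group over 2 or 3 trials, and the labels tie no library to a mouse or trial, so p-values rest on the spread between libraries, trials included.

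CPM values were TMM-normalized within each table. Each condition was fitted with its 3 genotypes in edgeR 4.0.16 (legacy quasi-likelihood test, R 4.3.3), after a re-implemented Jaccard filter (100 thresholds from 1 to 200, loess span 0.3). The filter kept a gene when its highest library passed the threshold, so a gene could enter a test through a single group where it was high. A gene was called past 1.5-fold at an adjusted p under 0.05. The SE beside an edgeR log2 fold change is that change's absolute value divided by the square root of its F statistic. It thus restates the test and was not estimated apart from it. The alternatives were another or no filter, size factors, DESeq2 1.42.0, edgeR 4's newer form, a replicate block, Bonferroni adjustment, a 2-fold limit, 1 fit over 48 libraries and leaving out each library. A sex term was added after seeing the data. The named genes are the 8 members, Stat5a and Stat5b, from the pathway list up to 4 a comparison with the largest fold change among those called, and those most like a member by Spearman correlation among genes with at least 5 CPM in any group. Members and lists were chosen with earlier results of these data known. Floors and counting error rest on 3 counts, or 0.117 to 0.506 CPM a CD8+ library.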

Additional observations from a re-analysis of the deposited data

Results flagged for a closer look

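The effect of BBA on Gzmb in Tcm differed between conditions, being larger by 4.07 on the log2 scale with IL-15 than without cytokine (interaction term, edgeR adjusted p = 0.0288). WT was 31.5 and 23 CPM with IL-15 and 4.99 and 2.64 CPM without, and BBA 2.93 and 0.727 CPM with IL-15 and 6.68 and 2.43 CPM without. Gzmb did not pass the filter in Tcm without cytokine and was not tested for genotype there alone. The interaction call was lost when any of several single libraries was left out, and time in culture and IL-15 cannot be told apart in it, as given above.

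The 2 CD4+ libraries with contradictory cytokine labels, which entered no comparison, held some of the genes above the highest of the 6 WT naive CD4+ libraries. In the AAB library Gzmk was 0.534 CPM and Nkg7 1.22 CPM. In the BBA library Gzmb was 0.838 CPM, Gzmk 1.49 CPM, Nkg7 1.4 CPM and Ifng 0.744 CPM. These rest on 7 to 16 counts each, and the highest WT values were 0.296 CPM for Gzmk, 0.738 for Nkg7, 0.443 for Gzmb and 0.184 for Ifng. Groups of 2 or 3 libraries are too small for a test of outlying samples.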

How the results depend on the processing

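No result reversed its direction under any alternative. The counts of calls among the 8 genes were 7 for WT over BBA, 3 for WT over AAB and 3 for AAB over BBA in CD8+ cells, 0 in CD4+ cells, 5 for CA-STAT5A, 7 for cytokine in WT, 11 for cell state and 1 for the interaction. Without a filter they were 27, 19, 11, 5, 6, 21, 32 and 3, and with DESeq2 14, 11, 9, 1, 6, 16, 21 and 3, and the cause was not tested. With the replicate number as a block (no block for CA-STAT5A) they were 15, 14, 9, 1, 12, 24 and 3. Shares of all genes called under these alternatives are not given, so the counts stand without a background. The correlation of the deviations of same-numbered libraries was 0.0636 to 0.796 in CD8+ cells outside Tcm with IL-7, -0.0555 to 0.253 in Tcm with IL-7 and 0.0773 to 0.453 in CD4+ cells, so many pairs deviated together. The labels do not say that a number marks a shared trial and CD8+ groups hold 2 pairs, so the block was kept as an alternative. The correlation was highest in Tem with IL-15, at 0.685 to 0.796. In the 3 pairs of WT and BBA CD4+ cells with IL-7 it was 0.0773 to 0.228. Missing calls in Tem with IL-15 thus rest on an unpaired fit of libraries that deviated together. Sex went with the number in the retrovirus libraries and in AAB and BBA of Tcm with IL-7, where WT was male throughout. The counts without a block thus rest on treating same-numbered libraries as unpaired, which was not tested. Gzmk in Tcm with IL-7 alone lost its call under the block (-2.31, adjusted p = 0.0525). Under Bonferroni adjustment, which the study's statistics section names, 1 call was left for AAB over BBA (Gzmm) and 0 in the 6 other comparisons with calls. One fit over 48 libraries gave 6 for WT over AAB, and filterByExpr 2 in CD4+ cells (Gzmk and Nkg7, both lower in WT than BBA with IL-7). A limit of over 2-fold gave 1 for AAB over BBA. Leaving out each library gave 4 to 11, 2 to 9, 1 to 4, 0 to 1, 5 to 6, 5 to 13, 8 to 16 and 0 to 2 in the order above. Of the 16 genes ranked first or second for likeness to a member by Spearman correlation, 4 were among the first 2 by Pearson correlation. Of 37 single-gene calls, 37 were kept with DESeq2, 36 with size factors, 35 with the newer edgeR form, 32 over 2-fold and 1 under Bonferroni, and 6 of 13 in one fit over 48 libraries. With 2 libraries a group, a change is seen only where replicates lie close, and 4 to 6 of the 8 genes in each Tnv condition did not pass the filter.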
